A study of Mus musculus with 2 samples.

Results

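Mitochondrial ribosomal proteins were described from the poly(A) RNA of pSM44 mouse embryonic stem cells. Members were the protein-coding genes whose symbols begin with Mrpl or Mrps followed by a digit, and the table listed 73 of them among 15127 genes. The GENCODE M21 annotation holds 78 such genes, 49 Mrpl and 29 Mrps, so that 46 Mrpl and 27 Mrps genes had a count and 5 genes had no row. The members lay on 17 chromosomes, with 11 on chromosome 11 and 8 on chromosome 17, and none on the X chromosome.

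Mitochondria keep a ribosome of their own, which makes the respiratory chain and ATP synthase subunits encoded in mitochondrial DNA. Its rRNAs come from mitochondrial DNA, while all of its proteins are encoded in the nucleus, made in the cytosol and imported. The large subunit forms peptide bonds and holds the exit tunnel, and the small subunit binds the mRNA. Compared with bacterial ribosomes the particle has lost rRNA and gained proteins, so its proteins fall into those with a bacterial counterpart and those found only in mitochondria.

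There was 1 group, of 2 libraries, both from pSM44 cells given doxycycline at 2 μg/mL for 24 h in serum-free 2i/LIF medium. pSM44 is a female line from an F1 cross of 129 and castaneous mice, in which a tetracycline-inducible promoter drives the endogenous Xist gene of the 129 allele. The libraries of untreated cells needed to ask what doxycycline or Xist did are not analysed here, so every value is a level in treated cells and no comparison between conditions was made. The counts stood in a single column that named the line and the treatment but no library, so each gene had 1 value, without replicate error. Counts summed to 10017978. All 7 stem cell markers looked up were high, from 3123 counts for Klf4 to 47245 for Dppa5a, whereas 9 of 11 markers of later epiblast, endoderm and fibroblasts were listed and held 824 counts together. Of those 9, Thy1 was highest with 267 counts, and Col3a1 and Dcn were not listed. The part of other cell types in the values below was not tested.

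Levels are given as CPM (the gene's count scaled by the table's total). Genes are compared as CPM per kilobase of exon unless CPM, counts or another length are named, since longer transcripts give more fragments. Whether reads in introns were counted is not known. The table's rows ran by count over gene span, introns included, so exon length is an assumption in every value per kilobase, and the members' median of 26.6 CPM per kilobase of exon is 7.95 per kilobase of span. Intervals are exact 95% Poisson intervals for counts and exact Clopper-Pearson intervals for shares. They cover counting error only and take the column as whole reads of 1 library or a sum, whereas a mean of both libraries would make them wrong. No test was run on any difference between genes, and the differences below are descriptions of this 1 column.

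Mitochondrial ribosomal protein genes were detected almost throughout. At a minimum of CPM 1, which is 11 counts, 73 of 78 annotated members were detected, or 93.6% (85.7 to 97.9), beside 55.1% of all 21924 annotated protein-coding genes. At CPM 10 the members' count was 70, or 89.7%, beside 40.6%. At CPM 100 it was 11, or 14.1% (7.26 to 23.8), a share near the 10.7% of all annotated genes. Members were thus almost all detected, and few were among the most abundant transcripts. No listed member was under CPM 1, and the lowest had 38 counts. Between these ends, 10 members had 20 to under 40 CPM and 49 had 40 to 100 CPM, and 3 members, Mrpl43, Mrps18a and Mrps18c, were under 10 CPM.

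All 73 members together took 55267 counts, 0.552% of the total. Their median level was 26.6 CPM per kilobase of exon, with quartiles of 12.5 and 42.6, while the median of all listed genes was 3.80 and that of genes at CPM 1 or more was 6.35. The ratio of the medians was 7.0 to all listed genes and 4.19 to the detected genes. Other large machines stood higher per kilobase. The ratio of the Mrp median to that of 35 complex I subunits, which assemble with proteins the mitoribosome makes, was 0.365. It was 0.304 to 37 proteasome subunits and 0.0426 to 78 cytosolic ribosomal protein genes, whose medians were 72.9, 87.5 and 624 CPM per kilobase. These sets were taken by symbol, and whether each gene in them codes for a subunit was not checked. Their lowest genes had 17, 5 and 1 counts in the same order.

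**Figure D1:**
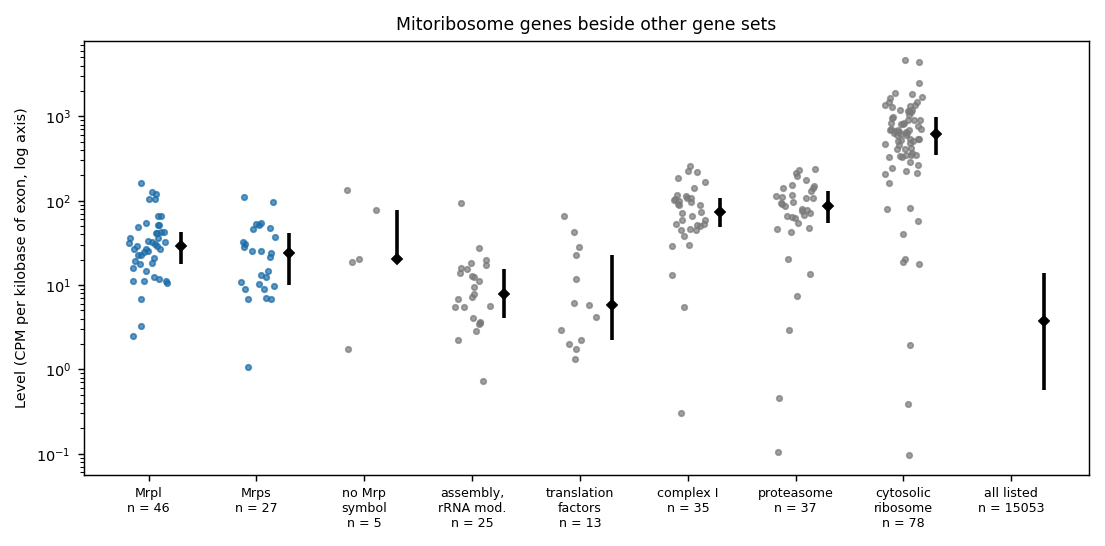
Level in CPM per kilobase of exon (log axis) of each listed gene of 8 gene sets, with the median as a diamond and the quartiles as a bar; the set of all listed genes is shown by median and quartiles alone. The 46 Mrpl and 27 Mrps genes lie between 1.08 and 162, under the median of the cytosolic ribosomal protein genes (624) and mostly above that of all listed genes (3.80).

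Subunits of 1 ribosome are needed in equal number, apart from the stalk protein Mrpl12, yet their mRNA levels were not equal. Per kilobase of exon the highest member stood 150 times above the lowest, and 41 of 73 members lay within 2-fold of the median. In CPM the highest stood 72.4 times above the lowest, and 57 of 73 lay within 2-fold of the median. The lowest per kilobase was Mrps18a, with 40 counts and 95.2% of its exonic bases under another gene. The part of this overlap in the spread was not tested. Per kilobase of exon the ratio of the upper to the lower quartile was 3.41. It was 2.23 for complex I, 2.45 for the proteasome, 2.84 for cytosolic ribosomal proteins and 24.4 for all listed genes. The order of these 4 complexes depends on the length. In CPM the Mrp ratio was lowest, at 1.88, against 2.26, 1.98 and 2.37 for the other complexes in the same order. Per kilobase of the APPRIS principal transcript, a length added after the data were seen, it was 2.70, against 2.48, 2.09 and 2.68. The half-width of the counting interval of a member ran from 3.76% to 33.2% of its count, so counting error is small beside this spread for all but the lowest members. Counts themselves hardly followed length: the Spearman rho of CPM with exon length across the 73 genes was 0.169 and with gene span -0.0704, as a description across genes of 1 column.

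The large and small subunit genes overlapped along nearly the whole range. The median was 28.7 CPM per kilobase for Mrpl genes (quartiles 17.8 and 42.6) and 23.8 for Mrps genes (quartiles 9.97 and 41.9), a ratio of 1.21. The counting error of the genes at the medians alone gives 1.06 to 1.37 for this ratio, and the spread between genes is far wider. Of all pairs of 1 Mrpl and 1 Mrps gene, the Mrpl gene was higher in 60.5%. In the other view, 29 of 46 Mrpl genes were above the Mrps median and 10 of 27 Mrps genes were above the Mrpl median. Mrpl genes held 37068 counts and Mrps genes 18199, so Mrpl genes had 67.1% (66.7 to 67.5) of the members' counts while they were 63.0% of the listed members. The symbols do not follow the particle in every case, because Mrps18a and Mrps30 code for proteins of the large subunit and Mrps36 is now placed with the oxoglutarate dehydrogenase complex. With genes placed by where the protein sits, the ratio was 1.13.

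**Figure D2:**
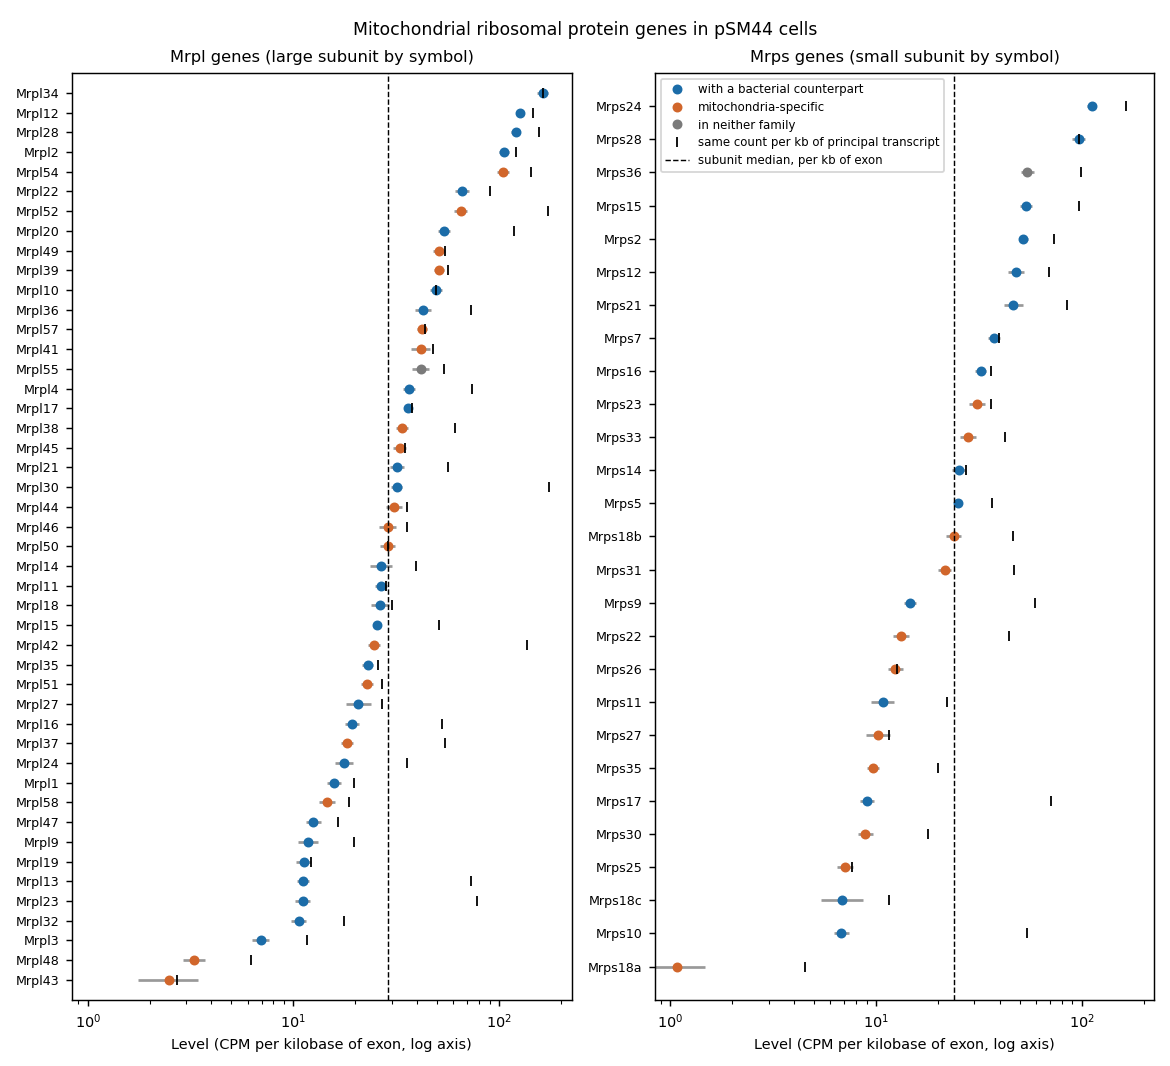
Level of each listed Mrpl gene (left) and Mrps gene (right) in CPM per kilobase of exon (log axis), with its exact Poisson 95% interval, ordered from high to low; ticks give the same count per kilobase of the principal transcript and dashed lines the subunit medians, 28.7 and 23.8. The panels overlap for most of their range, Mrpl genes running from 2.50 (Mrpl43) to 162 (Mrpl34) and Mrps genes from 1.08 (Mrps18a) to 111 (Mrps24), and for genes such as Mrpl30, Mrpl13 and Mrps10 the tick lies far right of the point.

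Mrpl34, Mrpl12, Mrpl28, Mrpl2 and Mrpl54 led the large subunit. Mrpl34, a short protein with a bacterial counterpart, was highest of all members per kilobase of exon with 988 counts (927 to 1052), or 162 CPM per kilobase over 607 bases of exon at chr8:71464959-71465747 on the plus strand of GRCm38. Mrpl12, which forms the stalk that recruits translation factors and has also been described as binding the mitochondrial RNA polymerase, had 1933 counts and 126 CPM per kilobase. Mrpl28 had 1666 counts and 121 CPM per kilobase. Mrpl2, one of the most conserved proteins near the peptidyl transferase centre, had 1243 counts and 106 CPM per kilobase. For Mrpl2, 100% of the exonic bases lay under Gm26904 on the same strand, and the part of this overlap in the value was not tested. Mrpl54, which is found only in mitochondria and sits at the stalk base, had 867 counts and 105 CPM per kilobase. The next gene, Mrpl22, a protein of the tunnel wall, was well below these 5 at 66.2 CPM per kilobase.

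Mrps24 and Mrps28 led the small subunit. Mrps24, the counterpart of bacterial uS3 at the mRNA entry, had 1636 counts (1558 to 1717) and 111 CPM per kilobase. Mrps28, counterpart of bS1, had 757 counts and 96.5 CPM per kilobase. Mrps36 followed with 54.3, Mrps15 with 53.4, Mrps2 with 52.0 and Mrps12 with 47.9 CPM per kilobase. Mrps15 and Mrps2 are counterparts of bacterial proteins of the small subunit's platform and back, and Mrps12 of the protein at the decoding centre. Per kilobase of exon the first 2 Mrps genes stood apart from a group of close neighbours. Per kilobase of the APPRIS principal transcript, a length chosen after the values were seen, Mrps24 alone did, at 164, with Mrps36 at 98.7 and Mrps15 and Mrps28 at 96.5 each. Mrps18b lay at the Mrps median, with 23.8 CPM per kilobase, and Mrpl46 and Mrpl50 lay at the Mrpl median, with 28.7 each.

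The order by counts was another one. Mrpl17, at the tunnel exit, had the highest count, 2751 (2649 to 2856) or 275 CPM, but 36.1 CPM per kilobase because its annotated exons cover 7605 bases. Of these bases, 100% lay under the span of Gm15645, and the part of this overlap in the count was not tested. Mrpl15 came next with 2157 counts and 25.4 CPM per kilobase over 8487 bases of exon, and Mrpl12 followed.

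At the low end, Mrpl43, Mrpl48, Mrpl3, Mrpl32, Mrpl23 and Mrpl13 were the lowest Mrpl genes per kilobase of exon. Mrpl43, found only in mitochondria, had 38 counts (26.9 to 52.2) and 2.50 CPM per kilobase. Mrpl48, of the central protuberance, had 268 counts and 3.28 CPM per kilobase. Mrpl3, whose bacterial counterpart reaches into the peptidyl transferase centre, had 462 counts and 6.92 CPM per kilobase. Mrpl32, which the m-AAA protease processes before the ribosome assembles, had 10.6, Mrpl23 of the tunnel exit 11.1 and Mrpl13 11.2 CPM per kilobase. Mrpl43, Mrpl48, Mrpl3 and Mrpl32 were low on either length, and Mrpl23 and Mrpl13 were not. Per kilobase of the principal transcript, Mrpl43 had 2.71, Mrpl48 6.24, Mrpl3 11.6 and Mrpl32 17.5. On that length Mrpl23 had 78.2 and Mrpl13 72.6.

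Among Mrps genes the lowest were Mrps18a, Mrps10, Mrps18c, Mrps25, Mrps30 and Mrps17. Mrps18a had 40 counts (28.6 to 54.5) and 1.08 CPM per kilobase, the lowest level of all members. Mrps10 had 549 counts and 6.78 CPM per kilobase, and Mrps17 had 589 counts and 9.06 CPM per kilobase. Mrps25, found only in mitochondria, had 465 counts and 7.06, and Mrps30 had 593 counts and 8.88 CPM per kilobase. Mrps10 and Mrps17, counterparts of uS10 and uS17, were low by the long union of their exons. Per kilobase of the principal transcript they were not, at 53.8 and 70.7. Per kilobase of the longest protein-coding transcript Mrps10 had 49.2, but Mrps17 stayed low, at 11.6. The median of all listed members on that length was 43.6. In all, 9 members moved by 20 or more of 73 ranks between exon length and the principal transcript. Among them were Mrpl30, from rank 30 to rank 1, and Mrpl42, from rank 42 to rank 8. The Spearman rho between both orders was 0.751 across the 73 genes.

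The S18 family has 3 members in mammals where bacteria have 1 protein. Mrps18b had 498 counts and 23.8 CPM per kilobase, Mrps18c had 74 counts (58.1 to 92.9) and 6.86 CPM per kilobase, and Mrps18a had 40 counts and 1.08 CPM per kilobase. Mrps18b and Mrps18c are small subunit proteins and Mrps18a is a large subunit protein, so the paralogs do not take the same site. The counting intervals of the 3 counts did not overlap. The other genes that lie over them differed too: 95.2% of the exonic bases of Mrps18a lay under the span of another gene, Rsph9, against 30.5% for Mrps18b and 23.2% for Mrps18c, and the part of this overlap in the values was not tested.

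Within the large subunit, groups of neighbouring proteins had different medians. The stalk genes Mrpl10, Mrpl11, Mrpl12 and Mrpl54 had a median of 77.1 CPM per kilobase, from 26.6 for Mrpl11 to 126 for Mrpl12, which was 2.68 times the Mrpl median. The fifth stalk gene, Mrpl53, was not listed. The 6 genes of the tunnel exit (Mrpl17, Mrpl22, Mrpl23, Mrpl24, Mrpl45 and Mrpl47) had a median of 25.2 CPM per kilobase, from 11.1 for Mrpl23 to 66.2 for Mrpl22. The 6 listed genes of the central protuberance (Mrpl18, Mrpl27, Mrpl38, Mrpl46, Mrpl48 and Mrpl58) had a median of 23.5, from 3.28 for Mrpl48 to 33.7 for Mrpl38, and Mrpl40 of the same region was not listed. The distances between groups depend on the length. In CPM the medians were 86.2 for the stalk, 60.1 for the tunnel exit and 38.8 for the central protuberance, beside 69.8 for Mrpl genes. Per kilobase of the principal transcript they were 96.2, 36.6 and 28.6, beside 48.4. These groups are small, and their ranges overlapped.

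Members with a bacterial counterpart and members found only in mitochondria had close medians, at 26.6 CPM per kilobase for the 43 genes with a counterpart and 24.2 for the 28 mitochondria-specific genes, a ratio of 1.10. The direction is not firm: the ratio was 0.928 without genes that have near-identical copies and 1.46 per kilobase of the principal transcript. Mrpl55 and Mrps36 were put in neither family. By place in the particle the large subunit had medians of 26.5 for 28 genes with a counterpart and 28.7 for 19 specific genes, and per kilobase of the principal transcript the order turned, at 50.2 with a counterpart and 35.8 for specific genes. In the small subunit the medians were 32.2 for 15 genes with a counterpart and 13.2 for 9 specific genes. The same small subunit order was seen in genes with at most 0.1 of their exonic bases under another gene, at 32.2 for 11 genes with a counterpart and 17.4 for 6 specific genes, and per kilobase of the principal transcript, at 59.3 with a counterpart and 36.1 for specific genes. The size of this gap depends on the list, however, because 4 small subunit proteins found only in mitochondria have symbols outside the Mrp series. With them the specific median was 20.4 (13 genes), still under the 32.2 of genes with a counterpart.

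**Figure D3:**
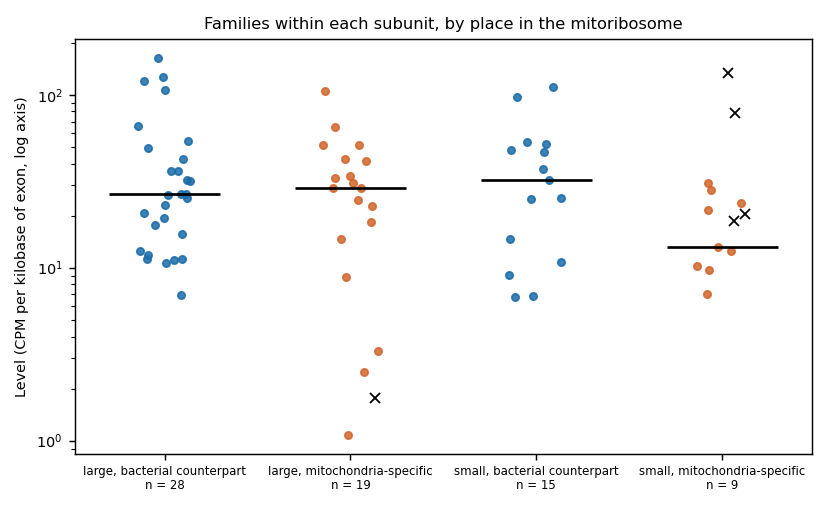
Level in CPM per kilobase of exon (log axis) of each listed member by subunit, placed by where the protein sits, and by family; lines are medians of the Mrp genes and crosses are the 5 mitoribosomal proteins without an Mrp symbol, which the medians leave out. In the small subunit the 15 genes with a bacterial counterpart have a median of 32.2 and the 9 specific Mrp genes one of 13.2, with overlapping ranges, and 2 of the 4 crosses there lie above every specific Mrp gene.

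These proteins without an Mrp symbol were Dap3, Ptcd3, Chchd1 and Aurkaip1 in the small subunit and Gadd45gip1 in the large subunit. Aurkaip1 had 1389 counts and 78.5 CPM per kilobase, and Chchd1 had 1217 counts and 133.6 CPM per kilobase. Dap3, the GTP-binding protein of the small subunit head, had 1323 counts and 20.4 CPM per kilobase. Ptcd3, a pentatricopeptide repeat protein, had 1278 counts and 18.6 CPM per kilobase. Gadd45gip1 had 44 counts and 1.76 CPM per kilobase, with 55.1% of its exonic bases under other genes.

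The 5 members with no row were Mrpl33, Mrpl40, Mrpl53, Mrps34 and Mrps6, and all 5 lay almost wholly under other genes. Between 97.0% and 100% of their exonic bases lay under the span of another annotated gene: Rbks for Mrpl33, Gm28539 for Mrpl40, Ccdc142os for Mrpl53, Mapk8ip3 and Nme3 for Mrps34, and Slc5a3 for Mrps6. All 52 members with an overlap of at most 0.1 were listed, and so were all 18 with an overlap between 0.1 and 0.95. Of the 8 with 0.95 or more, 3 were listed, namely Mrpl17, Mrpl2 and Mrps18a. Over all annotated protein-coding genes the listed share was 71.4% at up to 0.1, 84.0% in between and 11.2% at 0.95 or more. A missing row therefore says nothing on whether these 5 genes were transcribed, and the sources used here do not give how reads under 2 genes were counted.

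Listed members with more overlap had a lower median. It was 17.6 CPM per kilobase for 21 members with an overlap over 0.1 and 29.8 for 52 members with less, a ratio of 0.592, and the Spearman rho of level with overlap was -0.298 across the 73 genes. Mrpl43 overlapped Twnk, the mitochondrial DNA helicase gene, over 45.1% of its exonic bases, and Mrpl3 and Mrps25 overlapped other genes over 81.4% and 72.5%. Mrpl12 and Mrps24, with 26.3% and 15.4%, were among the highest members all the same.

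Near-identical pseudogene transcripts were found for 18 listed members, 9 Mrpl and 9 Mrps, and the counts of these genes are uncertain because reads could be shared with the copies. The match was at least 95% identity over at least 200 bases, and it found 22 pseudogenes. Mrps36 had 4, and Mrpl23 had a copy identical over 540 bases. The median level was 24.2 CPM per kilobase for the 18 genes with a copy and 28.7 for the 55 without.

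The genes that make and serve the mitoribosome were mostly detected, at lower levels per kilobase than its subunits. Of 27 annotated assembly and rRNA modification factors, 25 were listed, all at CPM 1 or more, with a median of 7.74 CPM per kilobase. Of all 21924 annotated protein-coding genes, 15053 were listed and 55.1% were at CPM 1 or more. Dhx30, an RNA helicase of mitochondrial RNA granules, had 1704 counts. Mpv17l2, an assembly factor of the inner membrane, had 1232, and Malsu1, which keeps the subunits from joining early, had 753. By counts these were the highest, and the RNase Ybey was lowest with 42. Per kilobase Mpv17l2 was highest, at 93.0, and Dhx30 had 16.0. Ddx28 and Mrm2 were not listed, and both lay with 100% of their exonic bases under other genes.

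All 13 translation factors were listed at CPM 1 or more, beside 55.1% of annotated protein-coding genes, with a median of 5.87 CPM per kilobase. Oxa1l, which inserts new proteins into the inner membrane, had 1886 counts, the elongation factor Tufm 1398 and the elongation factor Gfm1 995. By counts these were the highest, and the release factor Mtrf1l was lowest with 57. Per kilobase the order differed: Tufm was highest, at 65.7, and Mtrf1l, at 1.74, was not the lowest. Of 6 factors of mitochondrial transcription and mRNA stability, all were listed and 5 passed CPM 1 (beside the same 55.1%), with a median of 13.4 CPM per kilobase. Lrpprc, which stabilises mitochondrial mRNAs, had 1723 counts, the DNA-packaging and transcription factor Tfam 757 and the elongation factor Tefm 483. Per kilobase Tefm was highest, at 30.7, and Lrpprc had 20.2. Slirp, the partner of Lrpprc, had 3 counts, with 97.8% of its exonic bases under other genes. The median of the 73 ribosomal protein genes, 26.6, was above the medians of all 3 lists.

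Many members start near the start of a neighbour on the opposite strand, and whether promoters are shared was not tested. A protein-coding gene on the opposite strand starts within 1000 bases, head to head, at 33 of 78 members, or 42.3% (31.2 to 54.0), beside 10.9% of annotated protein-coding genes and 15.8% of genes at CPM 1 or more. At 15 of them the 2 genes overlap at their starts and at 18 the starts lie apart. Mrpl46 and Mrps11 face each other, at 28.7 and 10.8 CPM per kilobase, and this pair is counted from both sides. Beside 55.1% of annotated protein-coding genes at CPM 1 or more, 29 of the 33 neighbours reached it and 30 were listed. They ran from 0.399 CPM for Lrrc46, beside Mrpl10, to 865 CPM for Fau, a cytosolic ribosomal protein gene beside Mrpl49. Levels within pairs did not go together: Spearman rho per kilobase was -0.0355 across 29 listed pairs with a length, and the neighbour was higher than the member in 10 of them. The median was 26.4 CPM per kilobase of exon for 31 listed members with such a neighbour and 27.3 for 42 without. These were close by exon length only. In CPM the medians were 52.8 with a neighbour and 73.8 without, and per kilobase of the principal transcript 36.8 and 53.2. The cause of this difference was not tested.

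Promoters of mitochondrial protein genes are known for sites of Nrf1, of Ets factors such as GABP (also called Nrf2, encoded by Gabpa and Gabpb1) and of Yy1. Letters of these sites were searched on both strands in windows from 250 bases before to 50 after the gene start, which RefSeq (GRCm38.p6) gave for 69 of 78 members and for 17492 genes in all. The Nrf1 letters GCGCANGCGC were in 13 of 69 windows (18.8%), beside 11.5% of windows of genes at CPM 1 or more and 7.17% of all windows. The Ets letters CCGGAAGT were in 12 (17.4%, beside 9.06% and 5.69%), and the Yy1 letters AAGATGGCG were in 8 (11.6%, beside 3.48% and 2.14%). The letters shared by Thap11 and Zfp143, ACTACA and TCCC with 2 bases between them, were in 5 (7.25%, beside 4.73% and 2.92%). In all 34 windows held at least 1 of these 4, or 49.3%, beside 25.7% and 16.1%, with 25 of 43 Mrpl and 9 of 26 Mrps windows. The Sp1 letters GGGCGG were in 49.3%, below the 70.0% of genes at CPM 1 or more and near the 49.2% of all windows. CCAAT was in 39.1%, beside 43.3% and 42.3%, and the TATA letters TATAAA in 7.25%, beside 8.26% and 14.8%. A match is only a run of letters, not a bound site.

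**Figure D4:**
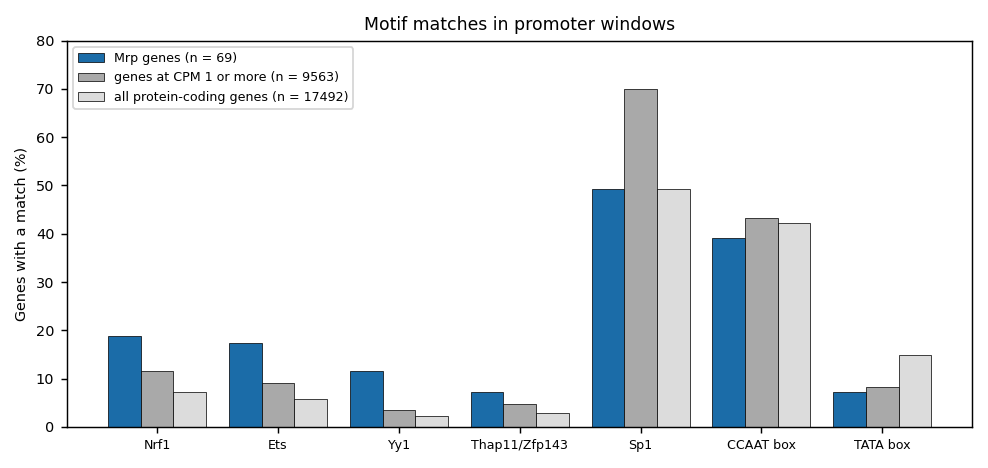
Percentage of promoter windows that hold each motif, for Mrp genes (69 windows), genes at CPM 1 or more (9563) and all protein-coding genes (17492). The Nrf1, Ets, Yy1 and Thap11/Zfp143 letters are in a higher share of Mrp windows than of either background, and the Sp1 letters are not, with 49.3% beside 70.0% and 49.2%.

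Genes with and without a match did not stand in 1 order of level. Per kilobase the median was 31.8 CPM with and 25.1 without the Nrf1 letters, 12.4 with and 29.8 without the Ets letters, and 20.6 with and 28.0 without the Yy1 letters. For Thap11 and Zfp143 the medians were 24.6 with and 26.7 without. Genes with and without a match were not matched for overlap or length, and the part of either in these medians was not tested. The factors themselves were listed, at 198 CPM for Gabpa, 59.0 for Gabpb1, 72.8 for Nrf1, 83.5 for Yy1, 82.1 for Thap11 and 332 for its partner Hcfc1. Zfp143 was not listed, with 100% of its exonic bases under another gene.

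The 250 bases before the start are printed for 4 members, chosen after the matches were seen and because they touch no annotated exon. They show the highest member, whose window repeats the Thap11 and Zfp143 letters, a member with Nrf1 letters, a member with both Ets and Thap11 and Zfp143 letters, and the highest Mrps gene, which has none of these 4 motifs before its start. All come from RefSeq on GRCm38.p6, run 5′ to 3′ on the gene's strand, and have matches to the first 4 motifs in capitals, with Sp1, CCAAT and TATA letters left in lower case. Mrpl34 is at chr8:71464676-71464925 (plus strand), Mrpl45 at chr11:97315466-97315715 (plus), Mrps22 at chr9:98601680-98601929 (minus) and Mrps24 at chr11:5707702-5707951 (minus). The RefSeq and GENCODE M21 starts are the same for Mrpl45. The RefSeq start lies 33 bases upstream of the GENCODE start for Mrpl34 and 19 upstream for Mrps22. For Mrps24 it lies 7979 bases downstream, so this stretch is inside the span of the GENCODE model whose exons gave the level.
Mrpl34: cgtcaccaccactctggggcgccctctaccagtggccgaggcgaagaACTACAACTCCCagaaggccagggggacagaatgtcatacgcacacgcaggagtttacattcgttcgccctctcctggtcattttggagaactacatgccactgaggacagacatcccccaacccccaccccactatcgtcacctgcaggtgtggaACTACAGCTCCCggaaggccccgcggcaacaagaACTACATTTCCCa
Mrpl45: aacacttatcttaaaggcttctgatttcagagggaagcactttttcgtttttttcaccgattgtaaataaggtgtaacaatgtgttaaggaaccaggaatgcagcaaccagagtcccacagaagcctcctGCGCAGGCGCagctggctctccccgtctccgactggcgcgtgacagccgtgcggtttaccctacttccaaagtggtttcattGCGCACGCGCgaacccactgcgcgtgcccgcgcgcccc
Mrps22: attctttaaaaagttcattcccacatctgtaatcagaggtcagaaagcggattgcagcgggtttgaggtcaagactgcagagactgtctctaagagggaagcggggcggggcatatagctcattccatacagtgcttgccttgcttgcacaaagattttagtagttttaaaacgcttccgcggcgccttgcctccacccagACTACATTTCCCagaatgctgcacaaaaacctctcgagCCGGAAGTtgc
Mrps24: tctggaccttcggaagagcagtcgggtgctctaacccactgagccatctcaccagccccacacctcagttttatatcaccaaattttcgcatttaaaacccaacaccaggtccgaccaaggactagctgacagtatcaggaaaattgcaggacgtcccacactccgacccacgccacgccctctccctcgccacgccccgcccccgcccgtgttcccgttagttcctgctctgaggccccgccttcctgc

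In the Mrpl34 sequence the Thap11 and Zfp143 letters stand 3 times, with the first base at positions -203, -47 and -13, counted back from the RefSeq start. Mrpl34 had 162 CPM per kilobase of exon, the highest of all members, and 162 per kilobase of the principal transcript, where it was rank 4 behind Mrpl30, Mrpl52 and Mrps24. In Mrpl45 the Nrf1 letters stand at -120 and -38, with 1 more match after the start, and this gene of the tunnel exit had 853 counts and 32.8 CPM per kilobase. In Mrps22, a mitochondria-specific small subunit protein, the Thap11 and Zfp143 letters stand at -49 and the Ets letters at -11, and the level was 13.2 CPM per kilobase from 529 counts. Mrps24 had 111 CPM per kilobase with no match to these 4 motifs in the 250 bases, and its Yy1 match lay after the RefSeq start.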

How the data were processed

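Poly(A) RNA was sequenced from 2 libraries of doxycycline-treated pSM44 cells. Per the submitters' processing notes, the tools were Trimmomatic 0.38, HISAT2, SAMtools and Subread 1.6.4 (featureCounts), and the build was GRCm38.p6. The authors deposited raw counts per protein-coding gene symbol in 1 column of whole numbers, with no row under 1 count. Not given in the sources used here are the annotation release, the strand setting, the feature counted (exon or gene) and whether the column is a sum, a mean or 1 library. Without strand, reads of overlapping genes cannot be told apart. Row order followed count over gene span (rho 0.9999 across genes, Spearman) more closely than count over exon length (0.921), and intronic reads may have been counted.

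Counts were divided by the column total (CPM) and by the union of exons in GENCODE M21, the same assembly. Symbols matched directly for 14896 genes and through RefSeq synonyms for 157; the 74 unmatched held 0.110% of the counts. Overlap is the share of exonic bases under another annotated gene's span. Pseudogene transcripts were matched with blastn 2.17.0. Medians, ratios and exact intervals used Python 3.11.15 with scipy 1.17.1, and the functions were checked on simulated data. With 1 column there was no test, no replicate error and no p-value.

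Members, gene lists and comparisons were chosen with earlier results of these data known. Named genes were the 6 highest and 6 lowest of each subunit per kilobase of exon, the 3 highest by counts and unlisted members. The S18 family, Mrpl12 and the genes nearest each median were also named. Of the other lists, the 3 highest and the lowest by counts and those not listed were named. Genes named for a structural group, a neighbour, an overlap or a motif were chosen after their values were seen.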

Additional observations from a re-analysis of the deposited data

How the results depend on the processing

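The count of detected members was 73 at CPM 0.5 and at 10 counts and 70 at CPM 10. The median level of 26.6 CPM per kilobase of exon is tied to its length: it was 65.0 CPM without a length, 43.6 per kilobase of the longest transcript, 44.1 of the principal transcript and 7.95 of gene span. Among members with little overlap it was 29.8, and without near-identical copies 28.7. The Mrpl to Mrps ratio, 1.21, was 1.09 with 5 subunits without an Mrp symbol added, and 1.06 by place and principal transcript together. It was 1.42 per gene span, 1.40 as a mean of log2 levels and 1.71 without genes that have near-identical copies. The ratio of genes with a bacterial counterpart to specific ones, 1.10, fell to 0.928 without genes that have near-identical copies, and so turned round. It was 1.33 in CPM, 1.38 per longest transcript, 1.46 per principal transcript, 1.42 per gene span and 1.48 as a mean of log2 levels. The cause of these changes was not tested, beyond the change of length. Principal transcript and span were added after the data were seen. No paired analysis was possible because the table has 1 column for the group. For the same reason leaving out a library was not run. Counting error limits little beyond the 3 members with under 100 counts, and agreement between libraries is unknown.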
